A study of Homo sapiens with 6 samples.

Results

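The genes described here are 39 transporters, enzymes, receptors and regulators that mark the proximal tubule, the nephron segment that reclaims most filtered solute. They were taken by symbol from a list of such genes, whether or not they were expressed, and all 39 were found among the 58395 genes of the deposited table. Their RNA was measured in 786-O cells, an established human kidney cancer line of clear cell type, known for its loss of VHL. The 3 sgControl libraries came from 786-O cells labelled Control, and the 3 sgPLOD2 libraries from 786-O cells labelled PLOD2 knockout, made with CRISPR/Cas9. Cells of both groups were kept in the same serum-containing RPMI-1640 medium. The labels do not say whether the cells were a clone or a pool, or that each replicate was its own culture, and the p-values therefore reflect only how far these libraries differ among themselves, which may be technical. The question addressed is whether genes of the tubule cell from which this carcinoma is thought to arise differ between the control cells and those targeted at PLOD2, the gene of the collagen lysyl hydroxylase LH2, in a series on differentiation of sarcomatoid renal carcinoma.

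Proximal tubule cells take up protein through megalin and cubilin, and they reabsorb glucose, phosphate, amino acids and bicarbonate with sodium-coupled carriers. Ectoenzymes on their brush border digest filtered peptides, and the cells make glucose from lactate and glutamine. The nuclear receptor HNF4A drives much of this programme, which clear cell carcinomas are known to lose in large part.

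The 250 bases before a RefSeq start site are shown for the 4 tested genes of the list with the largest fold changes on log2(FPKM + 1). These genes are SLC16A9 and ANPEP (higher in sgPLOD2) and PDZK1IP1 and ENPEP (lower). Each sequence runs 5′ to 3′ on the strand of its gene (build GRCh38.p14, RefSeq), and the last base printed lies directly before the start. Capitals mark matches to the hypoxia response core ACGTG on either strand. The windows are chr10:59710080-59710329 (minus strand) for the upstream start of SLC16A9, chr15:89806629-89806878 (minus strand) for the downstream start of ANPEP, chr1:47190037-47190286 (minus strand) for PDZK1IP1 and chr4:110475905-110476154 (plus strand) for ENPEP. By the deposited positions these 4 windows lie inside their genes, which begin further upstream (SLC16A9 at 59736002 and ENPEP at 110365733).
SLC16A9: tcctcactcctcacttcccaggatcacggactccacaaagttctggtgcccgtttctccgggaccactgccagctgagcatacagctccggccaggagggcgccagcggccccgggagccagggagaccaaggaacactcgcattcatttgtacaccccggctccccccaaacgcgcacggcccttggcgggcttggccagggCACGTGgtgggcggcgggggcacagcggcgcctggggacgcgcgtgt
ANPEP: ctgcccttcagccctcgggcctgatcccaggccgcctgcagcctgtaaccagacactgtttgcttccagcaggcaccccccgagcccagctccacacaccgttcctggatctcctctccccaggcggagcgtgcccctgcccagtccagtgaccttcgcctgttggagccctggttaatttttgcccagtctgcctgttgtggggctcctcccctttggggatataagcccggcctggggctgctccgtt
PDZK1IP1: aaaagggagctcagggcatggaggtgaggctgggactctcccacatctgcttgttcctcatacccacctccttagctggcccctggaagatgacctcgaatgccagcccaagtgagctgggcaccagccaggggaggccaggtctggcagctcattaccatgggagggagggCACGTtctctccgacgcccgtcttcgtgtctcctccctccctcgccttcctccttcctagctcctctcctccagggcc
ENPEP: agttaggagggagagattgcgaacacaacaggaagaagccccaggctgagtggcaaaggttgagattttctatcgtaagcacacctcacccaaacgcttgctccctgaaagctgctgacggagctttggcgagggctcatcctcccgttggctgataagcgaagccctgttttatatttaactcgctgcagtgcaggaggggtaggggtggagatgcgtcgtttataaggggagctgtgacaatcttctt

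In these windows SLC16A9 held ACGTG on both strands, within a palindromic CACGTG that starts 47 bases before the start, and PDZK1IP1 held it on the other strand 78 bases before. ANPEP and ENPEP did not hold it, nor did the window of a downstream RefSeq start of SLC16A9 (chr10:59709851-59710100) or that of the upstream start of ANPEP. Over the 51 windows of the 32 listed genes with a RefSeq entry, ACGTG on either strand was present in 8 (15.7%), against 18.5% of all 35116 windows of this length. The HNF4 word AAAGTCCA, also sought on both strands, was in windows of ALPL and PDZK1 (3.92%, against 0.98% of all). A match is only a run of letters. The listed genes at 1 FPKM or more had a median of 21.5 CG dinucleotides in their most CG-rich window of 300 bases, the weakly expressed ones 7 and those near or at 0 had 11, with wide overlap, against 16 for all genes with a window.

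The targeted gene was checked first. PLOD2 had 26.8, 25.7 and 21.5 FPKM (fragments scaled to transcript length and sequencing depth) in sgControl and 5.98, 10.1 and 6.64 FPKM in sgPLOD2, with no overlap, and 30.7% of the control mean remained. Its log2 fold change was -1.61 ± 0.18 (SE), with an adjusted p of 0.000509 in limma, a linear model fitted to log2(FPKM + 1) of all tested genes. By an exact permutation test (2-sided) p was 0.1, which is as low as 3 libraries against 3 can go. The library sgControl replicate 1 stood apart in its mitochondrial transcripts, which made up 12.9% of its FPKM total against 6.01% to 7.5% elsewhere. Median fold changes also differed between chromosomes, from -0.25 on chromosome 16 to 0.54 on chromosome 14 among the autosomes. The chromosome's median is given beside some of the results.

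Most of the 39 genes were close to absent in both groups. Only 10 reached a mean of 1 FPKM over the 6 libraries and could be tested, 9 were weaker but reached 0.1 FPKM in a library, 15 stayed below 0.1 FPKM everywhere, and 5 were listed at 0 in every library. By library, 8 or 9 of the 39 genes were at 1 FPKM or more and 25 to 29 were above 0. Of all 58395 genes of the deposited table, 16.9% to 18.2% were at 1 FPKM or more by library, and 10469 reached a mean of 1 FPKM. That table also holds noncoding genes and pseudogenes. The defining markers of the segment were among the lowest. Megalin (LRP2) was listed above 0 only in sgControl replicate 2 (0.00177 FPKM), cubilin (CUBN) reached at most 0.0414 FPKM, and HNF4A at most 0.00512 FPKM. The label of proximal tubule therefore describes how these genes were chosen and not the cells, which lacked most of the programme in both groups. In bulk RNA, fewer cells expressing a gene and less RNA per cell cannot be told apart.

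**Figure D1:**
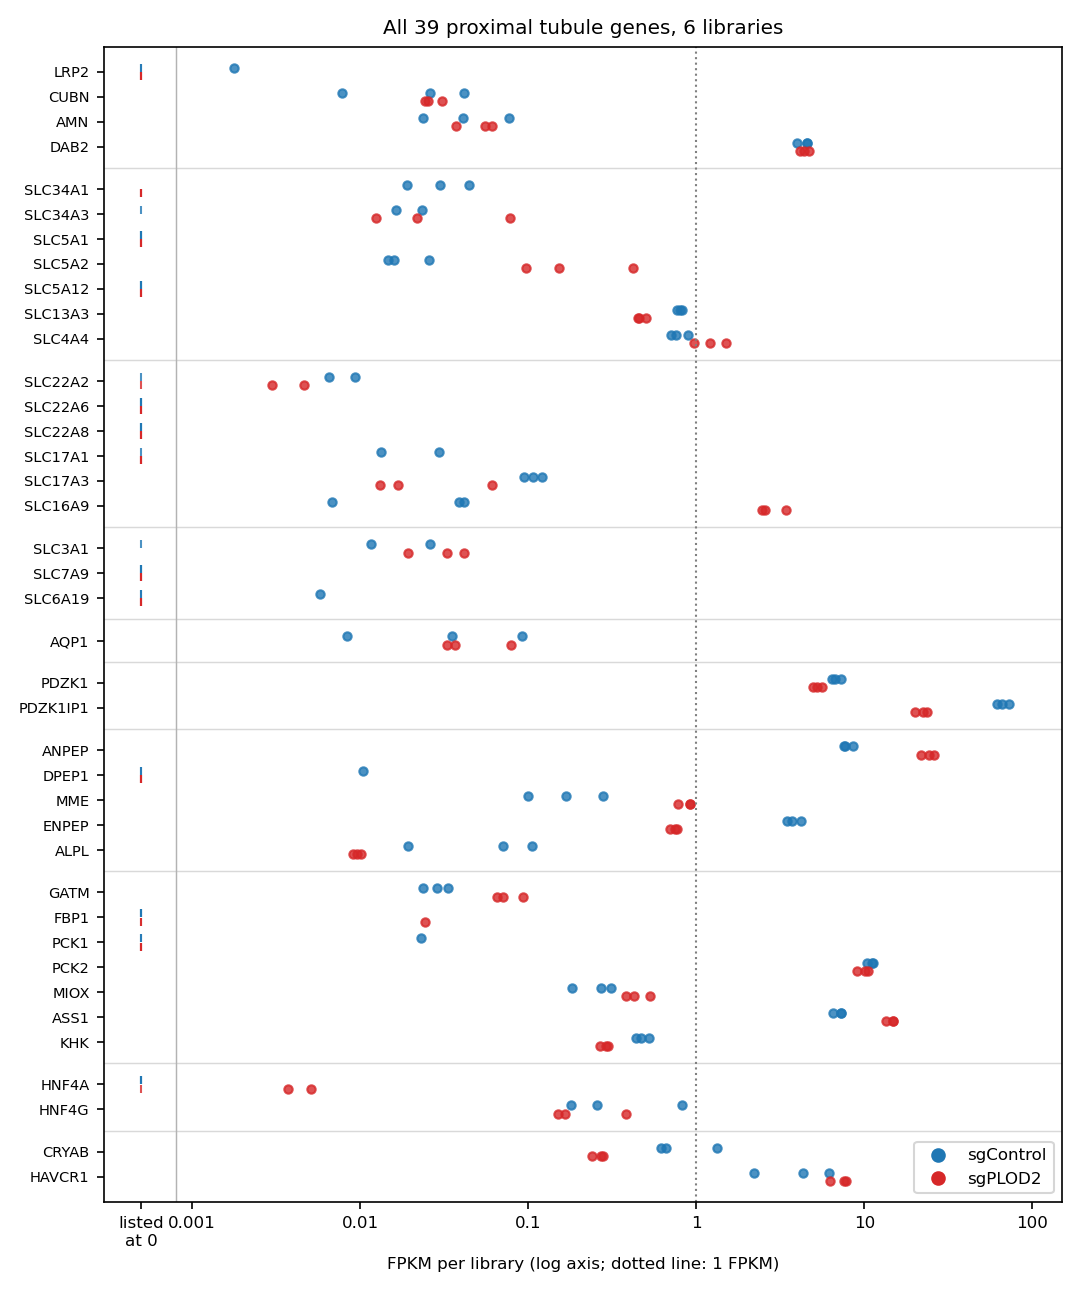
FPKM of each of the 39 genes in each library, grouped by role from endocytic receptors at the top to stress and injury genes at the bottom, on a log axis with a separate column for values listed at 0 (blue sgControl, red sgPLOD2). Most genes lie left of the dotted line at 1 FPKM, and SLC16A9 and ENPEP cross it between groups.

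Of the 10 genes tested, 4 were higher in sgPLOD2 (SLC16A9, ANPEP, ASS1 and SLC4A4) and 3 were lower (PDZK1IP1, ENPEP and PDZK1) at an adjusted p under 0.05. Among all 10469 genes tested, 29.5% were called higher and 23.5% lower. That split of 3084 higher and 2456 lower depended on the scaling, and was 3713 and 1834 with every library at the same total and 2735 and 2741 with median-of-ratios factors. The median log2 fold change was 0.16 over the 10 genes and 0.06 over all tested genes. SLC16A9, SLC4A4 and ENPEP averaged under 1 FPKM in the lower group and passed the filter through the group in which each was high, so their difference is in part a condition of being tested. The summed level of the 39 genes was 113 to 121 FPKM in sgControl and 93.3 to 98.0 FPKM in sgPLOD2. Without PDZK1IP1, the most abundant of them in sgControl, the order turned, with 48.1 to 50.7 FPKM in sgControl and 70.4 to 75.7 FPKM in sgPLOD2. Most of that turn lay in ANPEP and ASS1, and the other genes went both ways. The ANPEP mean was 7.96 FPKM in sgControl and 24.1 FPKM in sgPLOD2, and that of ASS1 was 7.01 and 14.4 FPKM.

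**Figure D2:**
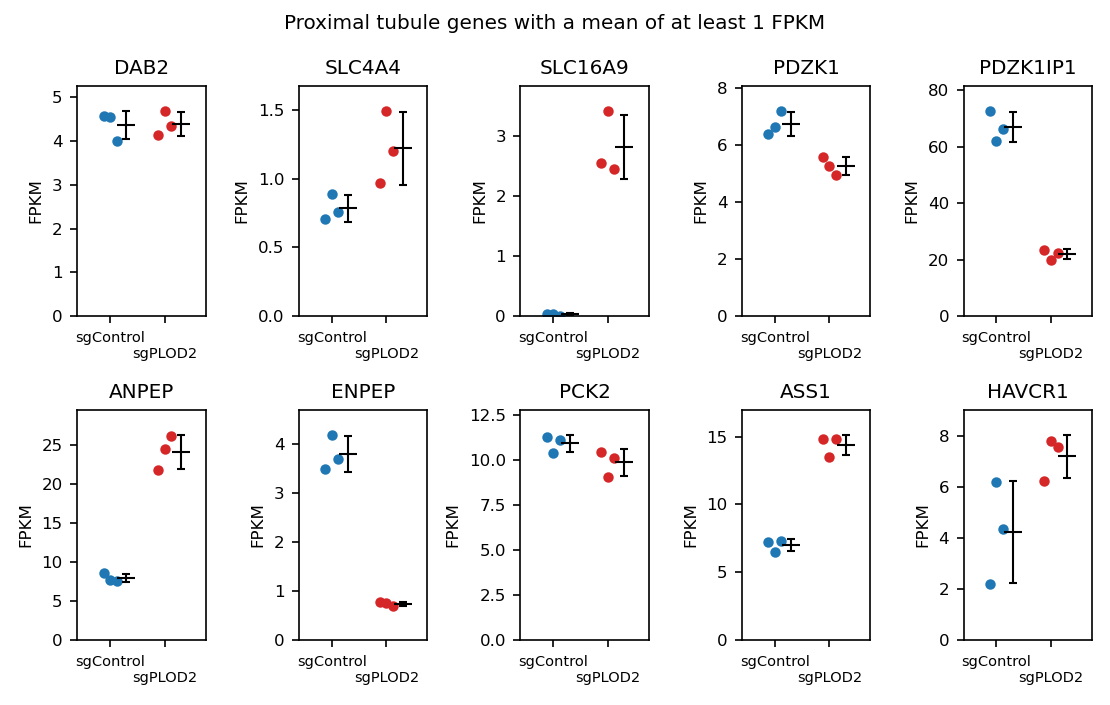
FPKM of the 10 tested genes per library (points, from replicate 1 on the left to replicate 3 on the right) with the mean and SD (n = 3) beside them, each panel starting at 0. SLC16A9, ANPEP and ASS1 are higher in every sgPLOD2 library, PDZK1IP1 and ENPEP lower, and DAB2 and PCK2 overlap.

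Among the endocytic genes, only the adaptor was expressed. DAB2, which links megalin to clathrin, had 4.56, 4.56 and 3.996 FPKM across the sgControl libraries and 4.15, 4.70 and 4.35 FPKM across those of sgPLOD2. The groups overlapped, and the log2 fold change was 0.01 ± 0.09 (SE), with a 95% interval from -0.21 to 0.22 (limma adjusted p = 0.951). After correction for GC content and length of the transcripts, it was -0.27 (adjusted p = 0.0481). LRP2, CUBN and AMN, the membrane anchor of cubilin, stayed below 0.1 FPKM. AMN had 0.0237, 0.0408 and 0.0770 FPKM in the controls and 0.0555, 0.0373 and 0.0613 FPKM after sgPLOD2, and it overlaps CDC42BPB on the other strand, at 12.2 FPKM or more.

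Of the 7 sodium-coupled carriers, 1 was tested, 2 were weak, 2 near 0 and 2 listed at 0. SLC4A4, the basolateral sodium bicarbonate cotransporter NBCe1, had 0.703, 0.890 and 0.756 FPKM with sgControl, against 0.967, 1.495 and 1.20 FPKM with sgPLOD2. Every sgPLOD2 library was above every sgControl library, by a small margin between the nearest values. Its log2 fold change was 0.31 ± 0.11 (SE), with an adjusted p of 0.0447 by limma. That call was lost without sgControl replicate 1 (0.0898), 2 (0.0548) or 3 (0.104) and without sgPLOD2 replicate 2 (0.135) or 3 (0.102), and the fold change was -0.16 after that correction for GC and length. The median fold change on chromosome 4 was 0.20, the same direction. With chromosome medians removed, SLC4A4 had 0.11 (limma adjusted p = 0.438). In the authors' deposited table its log2 fold change was 0.55 with an adjusted p of 0.0280.

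SLC5A2 encodes SGLT2, the carrier of most glucose reabsorption and the target of gliflozin drugs. It had 0.0146, 0.0158 and 0.0255 FPKM across the sgControl libraries and 0.153, 0.0973 and 0.419 FPKM across those of sgPLOD2. The sgPLOD2 libraries were all higher but differed widely, and replicate 3 was the highest. The authors' deposited table gave SLC5A2 a log2 fold change of 3.35 with an adjusted p of 1.08e-06. AC026471.3, an antisense gene that overlaps SLC5A2, went from at most 0.0653 FPKM to between 0.248 and 0.482 FPKM. C16orf58, which also overlaps SLC5A2 on the other strand, had 20.9, 19.4 and 22.5 FPKM with sgControl, against 12.8, 18.7 and 14.2 FPKM with sgPLOD2. Without a stated strand setting the reads of these genes cannot be told apart.

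SLC13A3 encodes the dicarboxylate carrier NaDC3 of the basolateral membrane. It had 0.819, 0.802 and 0.769 FPKM in the controls and 0.449, 0.457 and 0.504 FPKM after sgPLOD2, so all sgControl libraries were higher, and 59.0% of the control mean remained. The authors' deposited table called SLC13A3 lower (log2 fold change -0.84, adjusted p = 1.74e-05). It overlaps TP53RK, at 6.99 to 10.0 FPKM on the same strand, whose reads could be shared. The phosphate carriers were near 0. SLC34A1 had 0.0190, 0.0444 and 0.0301 FPKM in sgControl and was listed at 0 in all sgPLOD2 libraries (lower in the authors' deposited table, adjusted p = 8.49e-05). SLC34A3 reached at most 0.0784 FPKM, and SLC5A1, the glucose carrier SGLT1, and SLC5A12, a lactate carrier, were listed at 0 throughout.

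Among organic ion carriers, SLC16A9 went from nearly absent to expressed. It encodes the monocarboxylate transporter MCT9, known as a carnitine carrier and from genetic studies of urate (ENSG00000165449; chromosome 10, 59650761 to 59736002, minus strand). It had 0.0417, 0.0388 and 0.00683 FPKM with sgControl, against 2.56, 3.43 and 2.46 FPKM with sgPLOD2. Every sgPLOD2 library was far above the control range. The means were 0.0291 ± 0.0194 and 2.81 ± 0.53 FPKM (SD, n = 3 each), a 96.6-fold ratio whose denominator lies near 0. On the log2 scale SLC16A9 changed by 1.88 (SE 0.11, adjusted p = 2.67e-05 by limma), and the value was 4.49 with a pseudocount of 0.1 in place of 1. The median fold change on chromosome 10 was 0.13.

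The other carriers of this kind were weak, near 0 or listed at 0. SLC17A3, the voltage-driven urate carrier NPT4, had 0.107, 0.0950 and 0.120 FPKM across the sgControl libraries and 0.0169, 0.0132 and 0.0605 FPKM across those of sgPLOD2. All sgControl libraries were higher, and the authors' deposited table gave SLC17A3 a log2 fold change of -1.88 (adjusted p = 0.0229). SLC17A1, its neighbour 1014 bases away on chromosome 6, had 0.0132, 0 and 0.0296 FPKM in sgControl and was listed at 0 in sgPLOD2. The chromosome 6 median was 0.35, the opposite direction. The organic anion transporters SLC22A6 and SLC22A8, adjacent on chromosome 11, were listed at 0 in all libraries, and the organic cation transporter SLC22A2 reached at most 0.00933 FPKM.

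None of the amino acid carriers nor the water channel reached 0.1 FPKM. SLC3A1 and SLC7A9 form the cystine transporter whose loss causes cystinuria. SLC3A1 had at most 0.0413 FPKM and overlaps PREPL on the other strand, and SLC7A9 was listed at 0. SLC6A19, the neutral amino acid carrier B0AT1, was above 0 only in sgControl replicate 3 (0.00573 FPKM, a count of 4 in the units of the authors' table). AQP1, the constitutive water channel of this segment, had 0.00834, 0.0921 and 0.0352 FPKM in the controls and 0.0328, 0.0793 and 0.0369 FPKM after sgPLOD2, so the groups overlapped.

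Both genes of the brush border scaffold fell, by very different amounts. PDZK1IP1 encodes MAP17, a small membrane protein that binds the PDZ scaffold (ENSG00000162366; chromosome 1, 47183582 to 47191044, minus strand). It had 72.8, 61.9 and 66.2 FPKM with sgControl, against 23.5, 20.0 and 22.4 FPKM with sgPLOD2. The ranges were far apart, and 32.8% of the control mean remained. PDZK1IP1 thus had a log2 fold change of -1.57 (SE 0.10, adjusted p = 3.65e-05 by limma).

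PDZK1 itself, the scaffold that holds transporters at the apical membrane (ENSG00000174827; chromosome 1, 145670852 to 145708148, minus strand), had 6.38, 6.65 and 7.21 FPKM across the sgControl libraries and 5.59, 5.26 and 4.96 FPKM across those of sgPLOD2. The groups did not overlap, and 78.1% of the control mean remained. Its log2 fold change was -0.30 ± 0.09 (SE), with an adjusted p of 0.0238 by limma, lost when sgControl replicate 3 (0.0866) was left out, or replicate 2 (0.0719) or 3 (0.0774) of sgPLOD2, and with libraries rescaled to the same total (0.134). The median fold change on chromosome 1 was -0.07, and with chromosome medians removed PDZK1 had -0.24 (limma adjusted p = 0.0612). PDZK1P1, a transcribed pseudogene copy on chromosome 1 that could share reads, had 0.0148 to 0.522 FPKM.

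Of the brush border ectoenzymes, ANPEP rose and ENPEP fell. ANPEP encodes aminopeptidase N, or CD13, which trims peptides from their amino end (ENSG00000166825; chromosome 15, 89784895 to 89815401, minus strand). It had 8.58, 7.68 and 7.61 FPKM in the controls and 21.8, 24.4 and 26.1 FPKM after sgPLOD2. The mean was 3.03-fold higher in sgPLOD2, with no overlap (log2 fold change 1.48 ± 0.10 SE, limma adjusted p = 4.60e-05). ANPEP is known to have separate start sites for epithelial and for myeloid or stromal cells, and RefSeq lists an upstream start besides the downstream one shown above. A value per gene does not separate them.

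ENPEP encodes aminopeptidase A, which cleaves angiotensin II (ENSG00000138792; chromosome 4, 110365733 to 110565285, plus strand). It had 3.48, 4.18 and 3.69 FPKM with sgControl, against 0.770, 0.751 and 0.698 FPKM with sgPLOD2. Replicates were close within each group, and 19.5% of the control mean remained (log2 fold change -1.46 ± 0.09 SE, limma adjusted p = 3.11e-05). The median of chromosome 4 was 0.20, the opposite direction.

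MME encodes neprilysin, or CD10, another peptidase of the brush border. It had 0.0994, 0.279 and 0.167 FPKM across the sgControl libraries and 0.780, 0.918 and 0.914 FPKM across those of sgPLOD2, a 4.79-fold higher mean with no overlap. The authors' deposited table gave MME a log2 fold change of 2.16 (adjusted p = 4.82e-10). The median of the tested genes on chromosome 3, where MME lies, was 0.33, the same direction. ALPL, the tissue-nonspecific alkaline phosphatase gene, went the other way, with 0.0707, 0.0191 and 0.106 FPKM in the controls and 0.0102, 0.00953 and 0.00904 FPKM after sgPLOD2. The sgControl libraries were spread widely but all higher, and the authors' deposited table gave an adjusted p of 0.0162 for ALPL. The dipeptidase gene DPEP1 was above 0 only in sgControl replicate 1 (0.0105 FPKM).

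**Figure D3:**
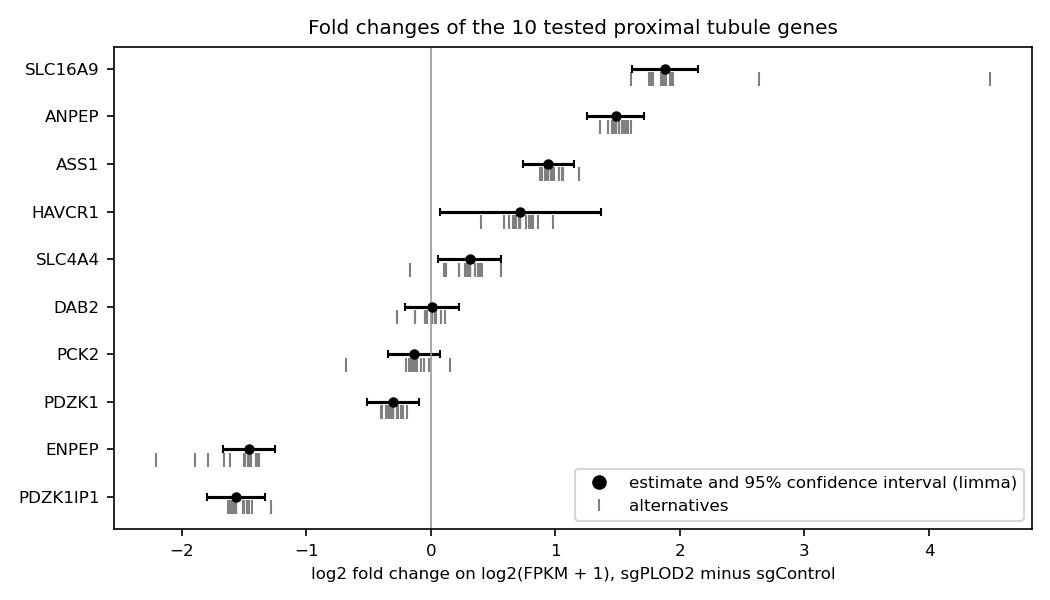
Log2 fold changes of the 10 tested genes on log2(FPKM + 1), sgPLOD2 minus sgControl, with 95% confidence intervals (black) and the values under the alternative settings (grey ticks). The alternatives of SLC16A9 at 2.64 and 4.49 are those with pseudocounts of 0.5 and 0.1, and ticks on both sides of 0 are seen for DAB2, PCK2 and SLC4A4.

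Of the metabolic enzymes, ASS1 rose and the gluconeogenic genes of the cytosol were near 0. ASS1 encodes argininosuccinate synthase, with which tubule cells turn citrulline towards arginine (ENSG00000130707; chromosome 9, 130444961 to 130501274, plus strand). It had 7.23, 6.51 and 7.29 FPKM with sgControl, against 14.9, 13.5 and 14.8 FPKM with sgPLOD2. The mean was 2.05-fold higher with no overlap (log2 fold change 0.94 ± 0.09 SE, limma adjusted p = 0.000210). Its processed pseudogenes could share reads, and the highest of them, ASS1P12, had at most 0.571 FPKM.

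PCK2, the mitochondrial phosphoenolpyruvate carboxykinase, had 11.3, 10.4 and 11.1 FPKM across the sgControl libraries and 10.5, 9.04 and 10.1 FPKM across those of sgPLOD2. The groups overlapped, with a log2 fold change of -0.14 and a 95% interval from -0.34 to 0.07 (limma adjusted p = 0.234). PCK2 lies on chromosome 14, where the median fold change was 0.54, and with chromosome medians removed its value was -0.68 (adjusted p = 0.00108). Relative to the other genes of its chromosome PCK2 was thus lower, while its level was not called different. The cytosolic isoform PCK1 was above 0 only in sgControl replicate 1 (0.0230 FPKM, a count of 23 in the units of the authors' table). FBP1, fructose-1,6-bisphosphatase, was above 0 only in sgPLOD2 replicate 2 (0.0243 FPKM, a count of 6).

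The other 3 metabolic genes were weak or, for GATM, near 0. KHK, which phosphorylates fructose, had 0.525, 0.468 and 0.435 FPKM in the controls and 0.266, 0.299 and 0.291 FPKM after sgPLOD2, all lower (authors' deposited table, log2 fold change -0.83, adjusted p = 0.00664). MIOX, the inositol oxygenase of the kidney, had 0.270, 0.182 and 0.310 FPKM with sgControl, against 0.424, 0.384 and 0.534 FPKM with sgPLOD2, all higher, without a call in the authors' deposited table (adjusted p = 0.149). GATM, which starts creatine synthesis, had 0.0287, 0.0332 and 0.0235 FPKM across the sgControl libraries and 0.0937, 0.0655 and 0.0709 FPKM across those of sgPLOD2. These sgPLOD2 values were all higher, at a level under 0.1 FPKM (authors' deposited table, adjusted p = 0.0154).

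Neither nuclear receptor was well expressed. All sgControl libraries and sgPLOD2 replicate 1 had HNF4A listed at 0, and it had 0.00512 and 0.00372 FPKM in sgPLOD2 replicates 2 and 3. Its paralogue HNF4G had 0.181, 0.823 and 0.256 FPKM in the controls and 0.381, 0.166 and 0.1497 FPKM after sgPLOD2. The highest value was that of sgControl replicate 2, and the groups overlapped.

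The injury marker was variable in the controls. HAVCR1 encodes KIM-1, a phagocytic receptor that injured tubule cells and many renal carcinomas make. It had 2.20, 6.20 and 4.33 FPKM with sgControl, against 6.24, 7.79 and 7.57 FPKM with sgPLOD2. The lowest sgPLOD2 value was only just above the highest sgControl value, and the log2 fold change of 0.72 ± 0.27 (SE) was not called (limma adjusted p = 0.0617). Leaving out sgControl replicate 2 gave 0.99 (adjusted p = 0.0126), and leaving out sgControl replicate 1, the lowest, gave 0.40 (adjusted p = 0.0675). With the replicate number as a block the adjusted p was 0.0274.

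CRYAB encodes the small heat shock protein alpha-B crystallin. It had 1.33, 0.616 and 0.660 FPKM across the sgControl libraries and 0.271, 0.279 and 0.241 FPKM across those of sgPLOD2. All sgControl values were higher, and that of replicate 1, the library with the high mitochondrial share, was the highest. Both other controls were also above the sgPLOD2 range. The authors' deposited table gave CRYAB a log2 fold change of -1.81 (adjusted p = 1.76e-06).

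Of the 9 genes with a mean under 1 FPKM that reached 0.1 FPKM in a library, 3 (SLC5A2, MME and MIOX) had all sgPLOD2 libraries above all sgControl libraries and 5 (SLC13A3, SLC17A3, ALPL, KHK and CRYAB) had them all below. HNF4G was the only overlap. SLC5A2 reached 0.1 FPKM only in sgPLOD2, and SLC17A3 and ALPL only in sgControl. For these genes the difference is in part a condition of being counted. Among all 8683 genes of that level, 24.5% were higher and 15.1% lower by the same measure. In the authors' deposited table, 7 of the 30 listed genes with an adjusted p were called higher and 9 lower, against 18.5% and 17% of all genes with one. ANPEP, ASS1, SLC16A9 and SLC4A4 were called higher there with MME, SLC5A2 and GATM, and all 3 genes called lower by limma were among its 9.

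**Figure D4:**
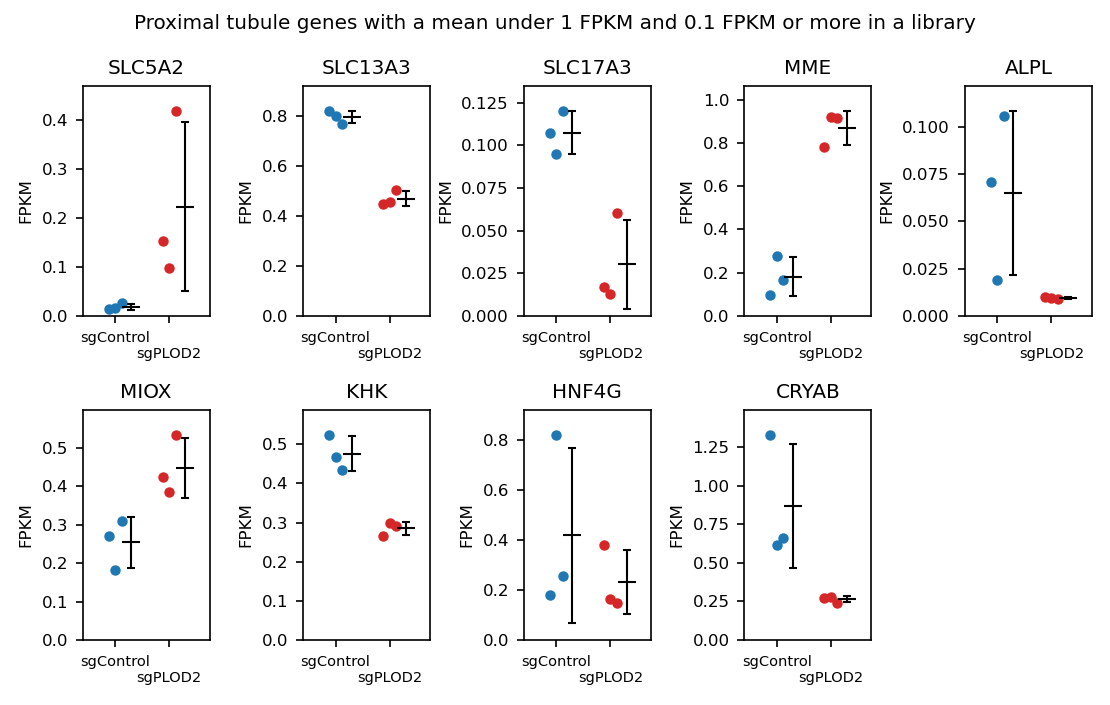
FPKM of the 9 weak genes per library (points) with the mean and SD (n = 3) beside them, each panel on its own linear scale from 0. MME, SLC5A2 and MIOX are higher in each sgPLOD2 library, SLC13A3, KHK, CRYAB, ALPL and SLC17A3 are lower, and HNF4G overlaps.

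The order of levels changed between groups. In sgControl, PDZK1IP1 was far above the rest, followed by PCK2 (10.9 FPKM), ANPEP (7.96), ASS1 (7.01) and PDZK1 (6.75). The ranges of ANPEP and ASS1 did not overlap there, whereas those of ASS1 and PDZK1 did. In sgPLOD2, ANPEP led with a mean of 24.1 FPKM, ahead of PDZK1IP1 with 21.96 FPKM, and the ranges of this pair overlapped. ENPEP, at 3.79 FPKM in sgControl, was the lowest of the 10 in sgPLOD2.

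Other genes of the segment were compared as a separate list of 57. Of these, 9 were tested, 6 fell (23.5% of all tested genes were called lower) and 0 rose by limma (29.5% of all were called higher). At an unadjusted p under 0.05 also 0 rose, and the share of all genes at that threshold was not computed. The authors' deposited table called 7 lower and 2 higher of the 32 with an adjusted p, against 17% and 18.5% of all genes with one. GGT1, the gamma-glutamyltransferase of glutathione breakdown, fell from 51.8 ± 5.75 to 7.30 ± 0.13 FPKM (SD, n = 3 each). The folate receptor gene FOLR1 fell from 4.14 ± 0.34 to 0.870 ± 0.137 FPKM, and it passed the filter only through sgControl. SLC9A3R1, which encodes the scaffold NHERF1, fell from 38.97 ± 2.17 to 17.5 ± 1.93 FPKM, and the sodium-proton exchanger gene SLC9A3, whose product binds such scaffolds, from 4.66 ± 0.27 to 2.11 ± 0.22 FPKM. SLC7A7 and MAF also fell, whereas DPP4, ABCC4 and SLC1A1 had fold changes within 0.03 of 0 on the log2 scale and overlapping groups. The median over the 9 tested was -0.69, against 0.16 over the 10 tested genes of the main list. Whether the lists differ was not tested.

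**Figure D5:**
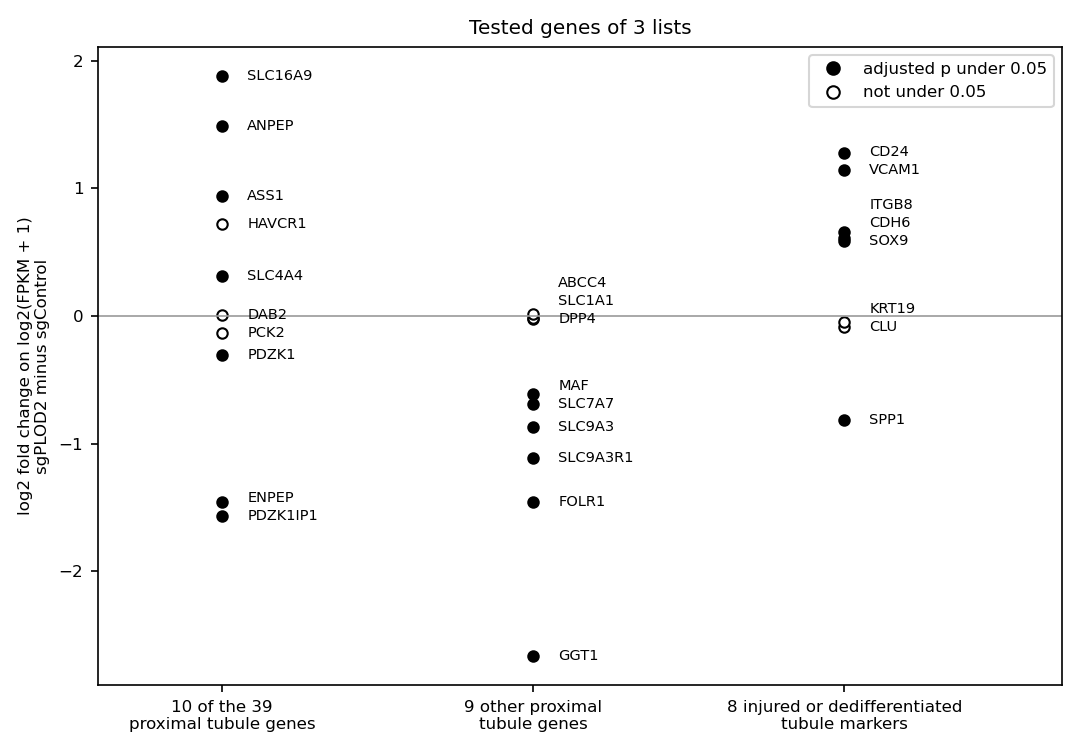
Log2 fold changes (sgPLOD2 minus sgControl on log2(FPKM + 1)) of the tested genes of 3 lists, filled where the limma adjusted p was under 0.05. The 39 listed genes contribute 10 that lie on both sides of 0, the other proximal tubule genes 6 called below 0, and the injured tubule markers 5 called above 0 and 1 below.

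Markers of other cells were given the same test. Of 26 markers of the loop, distal tubule and collecting duct, 0 reached a mean of 1 FPKM, and UMOD and AQP2 were listed at 0. The summed level of the 26 was 0.844 to 0.932 FPKM in sgControl and 0.759 to 0.913 FPKM in sgPLOD2. The authors' deposited table called 4 higher and 1 lower of the 8 with an adjusted p, against 18.5% and 17% of all genes with one. Of 7 podocyte markers, NPHS1 was listed at 0 and 3 were tested. PODXL rose (1.24 to 9.80 FPKM) and WT1 fell (4.82 to 3.66 FPKM), against 29.5% and 23.5% of all tested genes. SYNPO (58.7 and 43.9 FPKM) was not called (limma adjusted p = 0.0501). It made up most of the sums, which were 52.5 to 74.2 and 54.3 to 62.2 FPKM. Of 12 markers of injured or dedifferentiated tubule, 8 were tested, of which 5 (CD24, VCAM1, CDH6, SOX9 and ITGB8) rose, against 29.5% of all tested genes, and SPP1 fell. ITGB8 (0.592 and 1.48 FPKM) passed the filter only through sgPLOD2. Their sums were 140 to 156 and 183 to 226 FPKM, and HAVCR1 above had the same direction as the 5 without a call. VCAM1 rose from 16.6 ± 2.47 to 37.6 ± 3.03 FPKM, CDH6 from 4.11 ± 0.55 to 6.80 ± 0.39 FPKM, and SPP1 fell from 25.1 ± 4.07 to 13.8 ± 1.54 FPKM. CD24 had 35.3, 27.0 and 25.2 FPKM in the controls and 52.3, 73.6 and 93.6 FPKM after sgPLOD2. Of 11 endothelial and blood cell markers only CD68 was tested (15.8 to 5.86 FPKM, lower), while VWF, EMCN, CD3E, MS4A1 and HBB were listed at 0, and the sums were 11.5 to 18.4 and 5.58 to 6.64 FPKM. Of 6 hepatocyte markers only SERPINA1 was tested (24.3 to 15.2 FPKM, lower), with sums of 22.3 to 28.6 and 14.8 to 15.6 FPKM. The authors' deposited table called 2 podocyte markers higher and 2 lower of 5 with an adjusted p. For injured or dedifferentiated tubule it called 6 higher and 2 lower of 12. For endothelial and blood cells it called 1 higher and 1 lower of 3, and for hepatocytes 0 higher and 3 lower of 6. The shares of all genes given above (18.5% and 17%) apply here too.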

How the data were processed

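RNA was sequenced from 3 sgControl and 3 sgPLOD2 libraries of 786-O cells. The submitters' processing notes list CASAVA, HISAT2 2.1.0, StringTie 1.3.4 and the build GRCh38, and assign them no step. How reads were counted, with which strand setting and annotation, is not given in the sources used here. The authors deposited 1 FPKM value per gene and library, per the file headers, with no recorded scaling between libraries. Per the file headers, the same deposited table holds the authors' comparison, with a mean normalized count (a signal over all libraries), a log2 fold change, its standard error and test score, p-values and adjusted p-values.

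The groups were compared by limma 3.58.1 (R 4.3.3, intensity trend, 2-sided) on the scale log2(FPKM + 1). All 10469 genes averaging 1 FPKM or more entered the fit, and p-values were adjusted over them by Benjamini-Hochberg (threshold 0.05). The log2 scale understates changes of weak genes, so those are given as values, with the authors' deposited fold changes. Absolute depth is unknown. Where only 1 library was above 0, the authors' mean normalized count was always a whole multiple of that library's smallest step (100% within 0.01), which gave the counts quoted. Chromosomes came from GENCODE release 29 and gene positions from the deposited table. Promoter windows came from RefSeq (GRCh38.p14), for 32 of 39 genes, and not for SLC13A3, SLC22A8, PCK1, CRYAB, KHK, SLC3A1 and HNF4G. In 42 of 51 windows the last 30 bases were found in a GENCODE transcript of the gene as written, and in 0 on the other strand. The fit was checked on simulated data.

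The genes, lists and tests were chosen with earlier results of these data known. Tested genes are described in full, those reaching 0.1 FPKM by their values, and the rest by ranges and counts, with some given in full after their values were seen. In other lists up to 4 tested genes with the smallest adjusted p were to be named, and others named were chosen after seeing their values. The rule named the largest fold change in each direction for its sequence, and ANPEP and ENPEP were added after seeing the data. The alternatives tried were 2 smaller pseudocounts (0.1, 0.5), filters of 0 and 5 FPKM, 4 scalings, 2 variance models, a replicate block, leaving out each library, and removal of the GC and length trend (mgcv 1.9.3; known for 99.9% of tested genes) or of chromosome medians. Scalings and left-out libraries for the weak genes were added after seeing the data. Some genes of the comparison lists are not reported here and were left out of every list count.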

Additional observations from a re-analysis of the deposited data

How the results depend on the processing

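The calls of SLC16A9, ANPEP, ASS1, PDZK1IP1 and ENPEP held under every alternative in which they were tested, and so did that of PLOD2. The counts of 4 listed genes called higher and 3 lower became 2 and 2 at a minimum of 5 FPKM, where 6 were tested, and 5 and 7 with no filter, where 34 were tested (14.2% and 10.1% of all genes were called higher and lower then). The other proximal tubule genes gave 2 lower at a minimum of 5 FPKM, where 3 were tested, and 2 higher with no filter. Leaving out a library gave 3 to 4 listed genes higher and 2 to 3 lower, 6 of the other list lower each time, and a PLOD2 fold change of -1.81 to -1.47. DAB2 was not called in the fit described above. Its sign changed with median-of-ratios scaling (-0.047), quantile normalization (-0.13) and chromosome medians removed (-0.12). It also changed when sgControl replicate 3 or sgPLOD2 replicate 2 was left out (leaving out a library gave -0.044 to 0.041). After correction for GC and length, DAB2 was called lower (-0.27, limma adjusted p = 0.0481). The listed genes called were then 3 higher and 4 lower, and 2238 and 2412 of all 10457 tested. PCK2 (0.16) and SLC4A4 (-0.16) changed sign under that correction for GC and length, and the cause was not tested. SLC4A4 lost its call in 9 other alternatives and PDZK1 in 7. HAVCR1 gained one in 3. Same-numbered libraries did not deviate together (correlations of 0.014, 0.135 and -0.049), so the numbers were not taken as pairs. With the replicate block, PDZK1 was not called (adjusted p = 0.0544), HAVCR1 was, and 5 genes were higher and 2 lower. With every library at the same total, the median of all tested genes was 0.16 in place of 0.06. How far depth limits the listed genes under 0.1 FPKM differs between them. For those above 0 in a library, the authors' mean normalized count ran from 0.667 (DPEP1) to 49.7 (GATM).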
